A study of Mus musculus with 32 samples.

Results

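The ERV1 endogenous retroviruses were followed in mouse fibroblasts during chemical reprogramming, with and without CD3254, and after transcription was blocked. They were taken from the table of the actinomycin D experiment as all repeat families annotated to the ERV1 superfamily of long terminal repeat (LTR) elements, leaving out the VL30 family and its RLTR6 LTRs. The rule gave 144 of the 1146 repeat families listed and of 56639 features in all. The rule used names only and no measured value.

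The whole series holds 32 libraries, of which 12 belong to the actinomycin D experiment. All 12 come from mouse embryonic fibroblasts of the OG2X129 cross in a medium with KSR, FBS, bFGF, VPA, CHIR99021, 616452, Parnate, Forskolin, AM580, EPZ004777 and vitamin C, a cocktail used to turn fibroblasts into chemically induced pluripotent stem cells (ciPSC). DMSO and CD libraries differ by label in the addition of DMSO, the solvent control, or of CD, which the series title gives as CD3254, a synthetic agonist of the retinoid X receptors. Each arm was sampled after 0, 4 and 8 h of actinomycin D (ActD), which blocks transcription, with 2 libraries at each time. The doses of both agents and the day of reprogramming are not given in the labels, and neither is whether the 2 libraries of a group came from separate cultures. The p-values therefore measure only the spread between these libraries, which may be technical.

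Endogenous retroviruses are the remains of retroviral infections of the germ line. A complete copy has an internal part, which codes for the gag, pol and env proteins, between a pair of LTRs that hold the promoter and the end of the transcript. Recombination between the LTRs leaves a solitary LTR, which is the commoner form in the genome. Internal and LTR sequences are counted under separate family names, the internal ones usually ending in -int. ERV1 is the superfamily related to gammaretroviruses such as murine leukemia virus (MLV). In mouse embryonic cells many of these elements are kept silent by zinc finger proteins that bind them and recruit TRIM28 and the histone methyltransferase SETDB1.

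The 12 libraries hold 15382821 to 24186485 reads, recovered as whole reads from the deposited values. Replicates correlated across features with Pearson r of 0.968 in CD at 0 h and 0.98 to 0.994 in the other groups. Levels are given as CPM, reads scaled to the same total in every library, and ERCC spike-ins took 1267 to 2180 CPM, lowest in replicate 1 of CD at 0 h. In 1 row outside the ERV1 set, MMVL30-int, the 4 h and 8 h values are not whole reads. In each of those 8 libraries the reads missing from the total equal, within 0.01 CPM, the value that row lists at the other time of the same arm and replicate. The times of that row and of all other rows are thus exchanged against each other. Which order is right was not tested, so all values below keep the times of the column labels and both times are given.

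Of the 144 ERV1 families, 124 had a read in at least 1 library, 70 had a read in all 12, and 20 were listed at 0 throughout. A level of 1 CPM or more in at least 2 libraries was reached by 57 families, which were tested and hold 98.42 percent of the ERV1 reads. The 87 families not tested include 67 that were detected, with a mean of at most 0.674 CPM each. Internal families make up 28 of the 144, and 10 of these were tested, against 47 of 116 LTR families. Reads were concentrated in few names: the 4 families with the most reads took 67.44 percent of ERV1 reads and the 10 with the most took 79.66 percent. CPM is not corrected for the length or copy number of a family, so these are shares of reads and not levels per copy.

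Grouped by name, the 8 MLV-related families (RLTR4, MuLV, MuRRS, RLTR5 and MURVY names) took 58.88 percent of ERV1 reads. The 8 families of the RLTR1 group took 8.712 percent, the 2 GLN-related families 7.822 percent and the 9 LTRIS families 4.148 percent. The 21 other RLTR names took 6.806 percent and the 11 remaining names 8.595 percent. The 85 families with LTR or MER names, mostly elements shared with other mammals, took 5.034 percent, and 13 of them were tested.

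Summed over the 144 families, ERV1 RNA stood at 665.1 and 577.8 CPM in DMSO at 0 h and at 804.4 and 835.6 CPM in CD at 0 h. At 4 h the sums were 491.0 and 514.2 CPM in DMSO and 611.7 and 612.2 CPM in CD. At 8 h they were 413.4 and 481.8 CPM in DMSO and 575.1 and 567.8 CPM in CD. Both CD libraries lay above both DMSO libraries at every time, and the ratio of the means was 1.32, 1.217 and 1.277 at 0, 4 and 8 h. In both arms the sum went down with ActD, to 72.03 percent of the 0 h mean in DMSO and 69.69 percent in CD at 8 h. Reads of all repeat families went down as well. With MMVL30-int as listed, ERV1 took 3.51 and 3.05 percent of repeat reads in DMSO and 3.50 and 3.82 percent in CD at 0 h. At 4 h it took 4.00 and 3.80 percent in DMSO and 4.67 and 5.02 percent in CD. At 8 h the shares were 3.24 and 3.24 percent in DMSO and 3.63 and 3.66 percent in CD. Without the 2 RLTR4 families, which take the most reads, the CD to DMSO ratio of summed ERV1 CPM was 1.316, 1.057 and 1.258. CPM is relative to all reads in a library, and in bulk samples fewer cells of a type and less RNA per cell cannot be told apart.

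**Figure D1:**
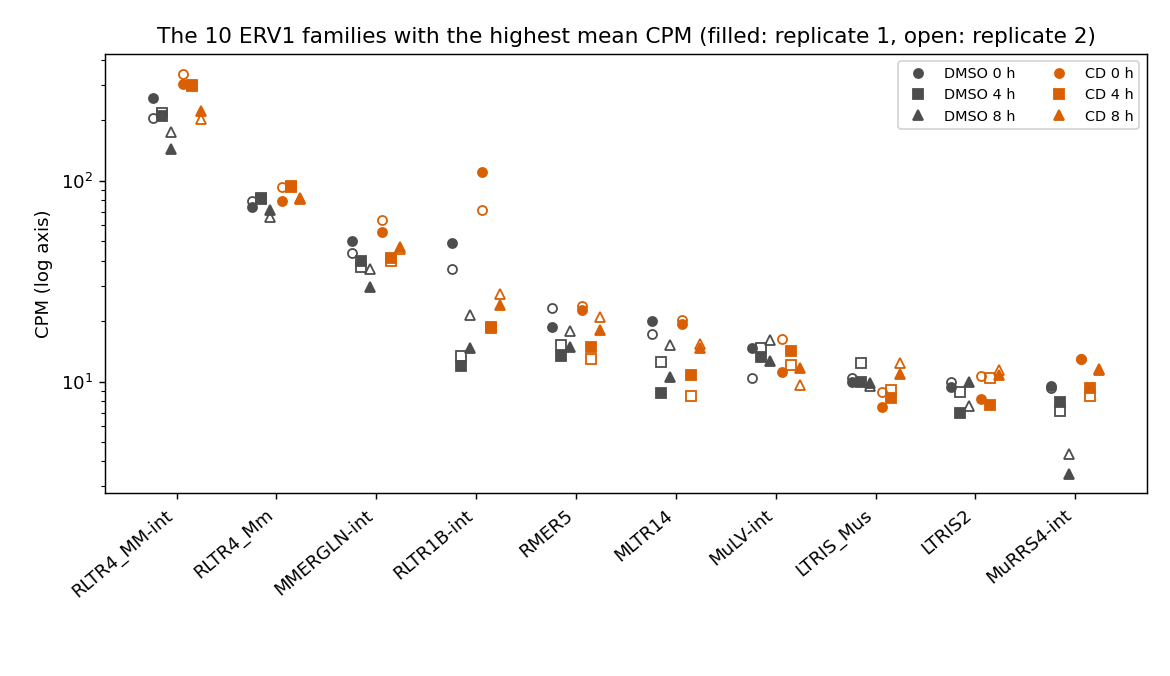
CPM on a log axis of the 10 ERV1 families with the highest mean, in each of the 12 libraries (gray, DMSO; orange, CD; circles 0 h, squares 4 h, triangles 8 h; filled, replicate 1; open, replicate 2). RLTR4_MM-int reached 144.3 to 340.8 CPM and RLTR1B-int 11.97 to 110.6 CPM.

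RLTR4_MM-int, the internal part of an MLV-like provirus, had the most reads of the ERV1 families. It stood at 258.8 and 204.7 CPM in DMSO at 0 h, and at 302.5 and 340.8 CPM in CD at 0 h. At 4 h it stood at 209.6 and 217.6 CPM in DMSO and at 295.7 and 301.8 CPM in CD. At 8 h it stood at 144.3 and 175.0 CPM in DMSO and at 223.3 and 204.5 CPM in CD. The CD libraries were above the DMSO libraries at all 3 times with no overlap, by 0.48 ± 0.15 (SE) at 0 h, 0.48 ± 0.15 at 4 h and 0.43 ± 0.15 at 8 h on the log2(CPM + 1) scale. None of these passed on its own in limma, with Benjamini-Hochberg adjusted p of 0.0503, 0.12 and 0.078. Lack of overlap was common: 39.8, 44.2 and 39.1 percent of all 17720 features tested were higher in CD with no overlap at 0, 4 and 8 h. Of the 57 tested ERV1 families 21, 16 and 24 were.

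Its LTR is RLTR4_Mm, which carries the MLV promoter. It ranged from 66.0 to 81.8 CPM over the 6 DMSO libraries and from 79.1 to 94.5 CPM over the 6 CD libraries. The groups overlapped at 0 h and not at 4 and 8 h, and the differences of 0.17, 0.20 and 0.25 (log2) had adjusted p of 0.333, 0.418 and 0.207 in limma. The ratio of LTR to internal CPM was 0.336 ± 0.071 (SD, n = 2) in DMSO and 0.268 ± 0.009 in CD at 0 h, and 0.438 ± 0.086 and 0.384 ± 0.021 at 8 h. MuLV-int, another MLV internal name, lay at 10.5 to 16.1 CPM in DMSO and 9.65 to 16.4 CPM in CD, with overlapping groups at 0 and 4 h and both CD libraries below both DMSO libraries at 8 h (log2 -0.39, adjusted p 0.301 in limma). Over all features 20.2 percent were lower in CD with no overlap at 8 h.

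Across the 12 libraries the repeat families most like RLTR4_MM-int, by Pearson r of log2(CPM + 1) among 655 others, were RLTR30D_RN, itself an ERV1 LTR, with r of 0.864, MTEa-int, of the MaLR group, with 0.859, and Arthur1B, a DNA transposon, with 0.855. These are descriptions over libraries that share arm and time.

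CD3254 against DMSO at 0 h asks what the RXR agonist changed before transcription was blocked. Of 57 ERV1 families tested 1 was higher and none was lower, while 7.99 percent of all 17720 features tested were higher and 6.16 percent lower. At an unadjusted p under 0.05 there were 7 families. The median log2 difference was 0.165 over the ERV1 families and 0.189 over all features.

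The family that rose was RLTR1B-int, the internal part of a rodent ERV1 element with RLTR1B as its LTR. It stood at 48.8 and 36.4 CPM in DMSO and at 110.6 and 71.9 CPM in CD. Both CD libraries were above both DMSO libraries, though the CD pair was itself spread, and the log2 difference was 1.06 ± 0.24 (adjusted p 0.0213 in limma), or 0.93 with the median feature held level by scaling. It did not pass without replicate 1 of CD at 0 h (log2 0.76) or without replicate 2 of DMSO at 0 h (log2 0.86), nor with ERCC scaling (adjusted p 0.0988) or with adjustment over repeat families alone (adjusted p 0.157). Its LTR, RLTR1B, had 12.2 and 7.0 CPM in DMSO and 16.4 and 11.7 CPM in CD, which overlap (log2 0.53, adjusted p 0.175). MER31B, an LTR of the older mammalian names, had 3.43 and 2.21 CPM in DMSO and 5.66 and 4.74 CPM in CD. The groups did not overlap, beside 39.8 percent of all features higher in CD with no overlap. Its log2 difference of 0.72 did not pass (adjusted p 0.115 in limma).

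At 4 h, 0 of 57 families passed in either direction in limma, beside 0.847 percent of all features higher and 1.64 percent lower. At an unadjusted p under 0.05 there were 3 families, edgeR called 0 and DESeq2 called 1, RLTR4_MM-int (log2 0.42, adjusted p 0.044). The median log2 difference was 0.066 over the ERV1 families and 0.118 over all features.

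At 8 h, 4 of 57 families were higher in CD and none was lower, against 9.28 percent of all features higher and 3.75 percent lower. The medians were 0.205 over the ERV1 families and 0.149 over all features. The 4 families were MuRRS4-int, MER34, RLTR1C and RLTR14-int, 2 internal parts and 2 LTRs.

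MuRRS4-int is the internal part of a murine retrovirus-related sequence of the MLV kind. It stood at 9.498 and 9.33 CPM in DMSO and 12.98 and 12.93 CPM in CD at 0 h. At 4 h it had 7.89 and 7.10 CPM in DMSO and 9.25 and 8.52 CPM in CD, and at 8 h 3.48 and 4.36 CPM in DMSO and 11.5 and 11.4 CPM in CD. CD was above DMSO with no overlap at all times, beside 39.8, 44.2 and 39.1 percent of all features at 0, 4 and 8 h. The gap was largest at 8 h, where the log2 difference was 1.35 ± 0.18 (adjusted p 0.00183 in limma). This difference passed under every alternative tried, including scaling to the median feature (log2 1.19) and to the spike-ins (log2 1.45), and with each library left out. RLTR14-int, the internal part that belongs with the LTR RLTR14, stood at 4.50 and 6.24 CPM in DMSO and 8.33 and 10.75 CPM in CD at 8 h. Its log2 difference of 0.73 ± 0.21 (adjusted p 0.0471) lay at the threshold and was lost under 6 of the other settings and with 7 of the libraries left out.

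MER34, an LTR of the older mammalian names with 235 reads in all 12 libraries, had 0.48 and 0.20 CPM in DMSO and 2.01 and 1.51 CPM in CD at 8 h (log2 1.05 ± 0.20, adjusted p 0.00949 in limma). At 0 h the same family had 0.93 and 0.82 CPM in DMSO and 1.36 and 1.67 CPM in CD (log2 0.42, adjusted p 0.151). It did not pass at 8 h without replicate 1 of CD at 8 h (log2 0.92). RLTR1C, an LTR of the RLTR1 group with 346 reads, had 0.72 and 0.98 CPM in DMSO and 2.19 and 1.98 CPM in CD at 8 h (log2 0.74 ± 0.20, adjusted p 0.0365). That call was lost under 5 of the other settings and with 8 of the libraries left out. At such levels the log2(CPM + 1) scale understates the change.

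A contrast of all 6 CD with all 6 DMSO libraries, averaged over the 3 times, was added after the data had been seen. It gave 9 families higher and 0 lower of 57, beside 27.4 percent of all features higher and 12.3 percent lower. The share of ERV1 families that passed, 15.8 percent, was below that background, and the median was 0.131 over ERV1 against 0.162 over all features. RLTR4_MM-int passed here with a log2 difference of 0.46 ± 0.08 (adjusted p 0.00229 in limma), and stayed past the threshold in each alternative, at 0.33 with the median feature held level. RLTR1B-int (0.70 ± 0.14), MuRRS4-int (0.66 ± 0.11) and MMERGLN_LTR (0.50 ± 0.12) had the largest differences of the 9 on the log2(CPM + 1) scale. The others were MER34, RLTR14-int, MuRRS-int, MMERGLN-int and RLTR4_Mm, between 0.21 and 0.46. The order differed with edgeR, which gave MER34 0.84, above RLTR1B-int (0.59), MuRRS4-int (0.62) and MMERGLN_LTR (0.57). The call of RLTR4_Mm was lost in 15 of 21 alternatives and that of MMERGLN-int in 7 of 21. That of MuRRS-int was lost with median-ratio scaling, ERCC scaling, edgeR and DESeq2, and that of MER34 with DESeq2. CD lay above DMSO in the mean at all 3 times in 20 of the 57 families (35.09 percent) and in 42.91 percent of all features.

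The GLN-related families belong to a mouse retrovirus primed by a glutamine transfer RNA. MMERGLN-int stood at 50.4 and 43.8 CPM in DMSO and 55.4 and 63.8 CPM in CD at 0 h, at 39.99 and 37.4 against 41.3 and 39.9 CPM at 4 h, and at 29.7 and 36.2 against 47.0 and 45.9 CPM at 8 h. The arms overlapped at 4 h and were apart at 0 and 8 h, with log2 differences of 0.33 (adjusted p 0.12) and 0.49 (adjusted p 0.0502) in limma. Its LTR, MMERGLN_LTR, had 2.80 and 2.33 CPM in DMSO and 4.14 and 4.69 CPM in CD at 0 h, and CD was above DMSO with no overlap at each time. Over all features 39.8, 44.2 and 39.1 percent were higher in CD with no overlap at 0, 4 and 8 h.

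**Figure D2:**
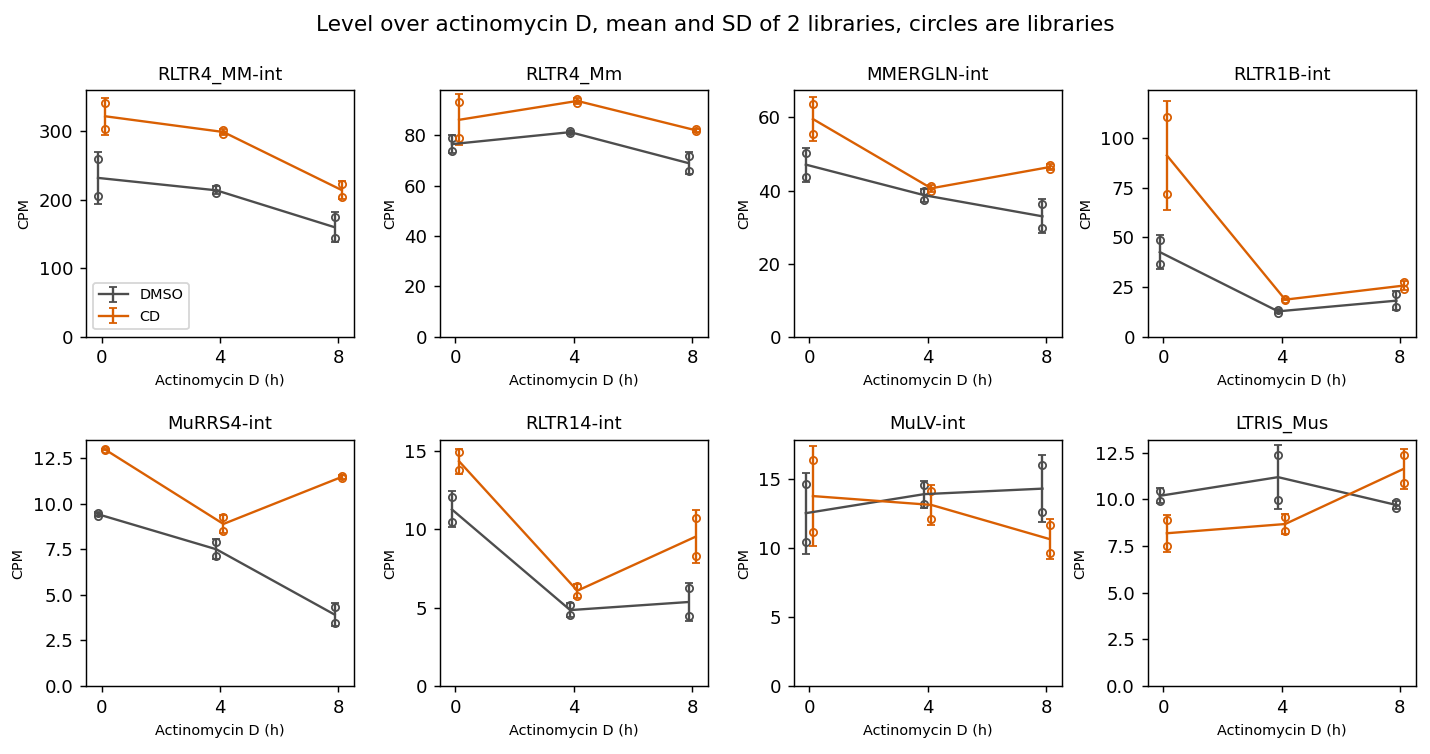
CPM of 8 ERV1 families against hours of actinomycin D in DMSO (gray) and CD (orange); lines join the means, bars are the SD of 2 libraries and circles are the libraries. Of the 8, RLTR1B-int drops most by 4 h in both arms, and MuRRS4-int is at 3.48 and 4.36 CPM in DMSO at 8 h against 11.5 and 11.4 CPM in CD.

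Comparisons of ActD times with 0 h ask which RNAs lost share while transcription was blocked. They use the same 0 h libraries for both times within an arm. In DMSO at 4 h, 0 of 57 ERV1 families were higher and 5 lower, against 1.34 and 21.2 percent of all features. In CD at 4 h, 0 were higher and 20 lower, against 8.89 and 36.9 percent. In DMSO at 8 h, 0 were higher and 8 lower, against 3.64 and 26.9 percent, and in CD at 8 h, 0 were higher and 12 lower, against 12.7 and 40.8 percent. The ERV1 medians at 4 h were -0.381 in DMSO and -0.508 in CD, beside -0.245 and -0.299 over all features. At 8 h they were -0.325 and -0.257, beside -0.334 and -0.34. With the median feature held level the calls were 1 higher and 12 lower in CD at 4 h and 2 higher and 4 lower in CD at 8 h.

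RLTR1B-int had the largest fall on the log2(CPM + 1) scale in all 4 comparisons. As percent of 0 h CPM, other tested families were lower in each comparison. In DMSO at 4 h these were RLTR41A2, MLTR12 and LTR48 (10.71, 22.89 and 29.21 against 29.88). In DMSO at 8 h they were RLTR30D_RN, MER34, MuRRS4-int and RLTR1D (37.17, 38.49, 41.61 and 42.07 against 42.52). In CD they were LTR78 at 4 h (14.82 against 20.4) and MER31B at 8 h (27.55 against 28.15). From 48.8 and 36.4 CPM in DMSO RLTR1B-int went to 11.97 and 13.5 CPM at 4 h and 14.7 and 21.5 CPM at 8 h. From 110.6 and 71.9 CPM in CD it went to 18.8 and 18.4 CPM at 4 h and 24.1 and 27.3 CPM at 8 h. All 0 h libraries lay above all ActD libraries of their arm. Over all features, 51.4 and 51.1 percent were lower with no overlap in DMSO at 4 and 8 h, and 55.3 and 56.4 percent in CD. The log2 changes of RLTR1B-int were -1.65 ± 0.24 at 4 h and -1.20 ± 0.24 at 8 h in DMSO, and -2.20 ± 0.24 and -1.76 ± 0.24 in CD, all past the threshold in limma (adjusted p 0.00581, 0.00823, 0.000918 and 0.00267). With the median feature held level they were -1.36, -0.80, -1.83 and -1.42, and all passed. The RLTR1 group as a whole was left at 38.75 percent of its 0 h CPM in DMSO and 25.73 percent in CD at 4 h, and at 48.86 and 34.39 percent at 8 h.

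RLTR14-int also fell in both arms and at both times. It went from 12.1 and 10.5 CPM in DMSO to 4.52 and 5.19 CPM at 4 h, and from 14.9 and 13.8 CPM in CD to 6.41 and 5.77 CPM. The log2 changes at 4 h were -1.07 ± 0.21 (adjusted p 0.00916) and -1.12 ± 0.21 (adjusted p 0.00236) in limma. At 8 h RLTR14-int stood at 4.50 and 6.24 CPM in DMSO and 8.33 and 10.75 CPM in CD. Its call in CD at 8 h was kept with ERCC scaling and lost with median-ratio scaling, edgeR and DESeq2. In DMSO at 8 h MuRRS4-int fell (-1.09 ± 0.18, adjusted p 0.00544), whereas in CD its change at 8 h was -0.16 ± 0.18 (adjusted p 0.465). In CD at 4 h it fell by 0.50 ± 0.18 (adjusted p 0.0434), a call lost in 14 of 21 alternatives, with the median feature held level among them.

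Among the LTR names, MLTR12, with 291 reads in all, fell in all 4 comparisons, from 1.87 and 1.83 CPM to 0.28 and 0.57 CPM in DMSO at 4 h (log2 -1.01, adjusted p 0.0104). Both of its calls at 8 h were lost with median-ratio scaling, edgeR and DESeq2, and that in DMSO also with ERCC scaling. At 4 h its call was lost with ERCC scaling in DMSO and with DESeq2 in CD. RLTR41A2 passed in DMSO at 4 h alone, where it fell from 0.67 and 1.26 CPM to 0 and 0.21 CPM (log2 -0.83, adjusted p 0.0178 in limma). LTR78 and MER31B, both of the older mammalian names, fell in CD at 4 h, by 1.88 ± 0.37 and 1.35 ± 0.31 on the log2 scale, and at 8 h, by 1.25 ± 0.37 and 1.36 ± 0.31. In DMSO their changes had the same sign and did not pass. RLTR1B, the LTR of RLTR1B-int, fell by 1.10 ± 0.27 at 4 h and 1.04 ± 0.27 at 8 h in CD. MLTR14 and RMER5, the LTRs with the most reads among the remaining names, fell in CD at 4 h (-0.97 and -0.70). The call of RMER5 was lost in 4 of 21 alternatives, with median-ratio scaling, edgeR and DESeq2 among them. MLTR14 also fell in DMSO at 4 h (-0.77, adjusted p 0.0328 in limma), a call lost in 10 of 21 alternatives, with median-ratio scaling, ERCC scaling, edgeR and DESeq2 among them.

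**Figure D3:**
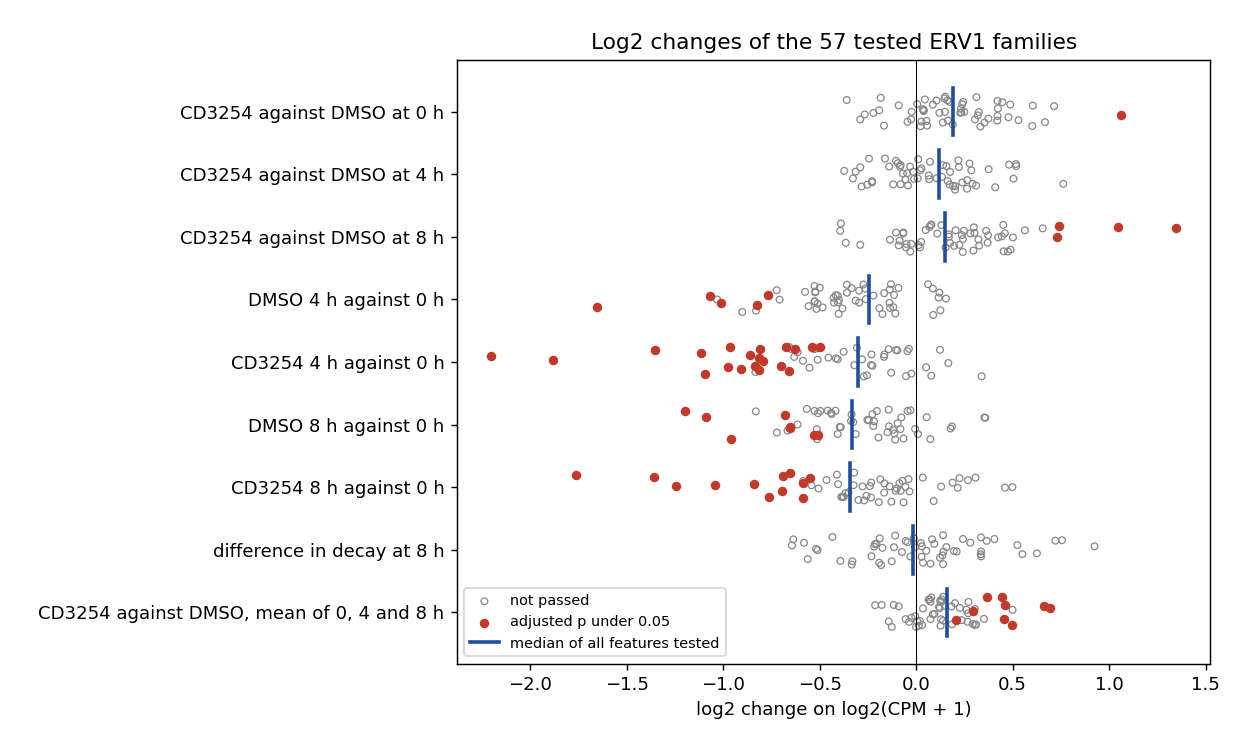
Log2 change, on log2(CPM + 1), of each of the 57 tested ERV1 families in the 9 comparisons; red points passed an adjusted p under 0.05, open points did not, and blue bars mark the median of all 17720 features. All red points of the comparisons with 0 h lie below 0, and in the difference in decay there is none.

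Summed, the MLV-related reads kept most of their share at 4 h. The sum stood at 95.04 percent of its 0 h CPM in DMSO and 94.2 percent in CD at 4 h, and at 74.35 and 72.88 percent at 8 h. At 4 h RLTR4_MM-int was at 92.18 and 92.87 percent, RLTR4_Mm at 106.2 and 108.7 and MuLV-int at 111.0 and 95.36. MuRRS4-int was at 79.61 and 68.57 percent, MuRRS-int at 66.48 and 52.04 and MURVY-LTR at 59.39 and 55.36. Of these 6 tested families, 2 were called lower in CD at 4 h, beside 36.9 percent of all features. RLTR4_MM-int changed by -0.11 ± 0.15 in DMSO and -0.10 ± 0.15 in CD at 4 h, neither past the threshold. The CD value was higher under edgeR (0.36, adjusted p 0.0345) and DESeq2 (0.32, adjusted p 0.0432), which hold other quantities level. At 8 h it fell by 0.53 ± 0.15 in DMSO (adjusted p 0.0219) and 0.59 ± 0.15 in CD (adjusted p 0.00698) in limma, beside all-feature medians of -0.334 and -0.34, and neither call remained with the median feature held level. RLTR4_Mm changed by 0.12 ± 0.12 in CD at 4 h (adjusted p 0.43) and was higher with the median feature held level (0.50, adjusted p 0.0199).

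The LTRIS names, a set of mouse LTRs, kept the highest share of the 7 name groups at 8 h. Summed, they stood at 94.73 and 93.11 percent of 0 h in DMSO and 91.97 and 114.2 percent in CD at 4 and 8 h. LTRIS_Mus had 9.91 and 10.5 CPM in DMSO and 7.48 and 8.89 CPM in CD at 0 h, and 9.84 and 9.56 CPM in DMSO and 10.9 and 12.4 CPM in CD at 8 h. The CD libraries at 8 h were above those at 0 h by 0.46 ± 0.19 (adjusted p 0.058 in limma), and passed with the median feature held level (0.76, adjusted p 0.008). LTRIS2 lay at 7.01 to 9.90 CPM in DMSO and 7.66 to 11.4 CPM in CD, and no comparison passed. LTRIS3 was the 1 LTRIS family that fell, in CD at 4 h (-0.66, adjusted p 0.0422), and it is named here for its call alone. That call was lost with median-ratio scaling, ERCC scaling, edgeR and DESeq2.

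**Figure D4:**
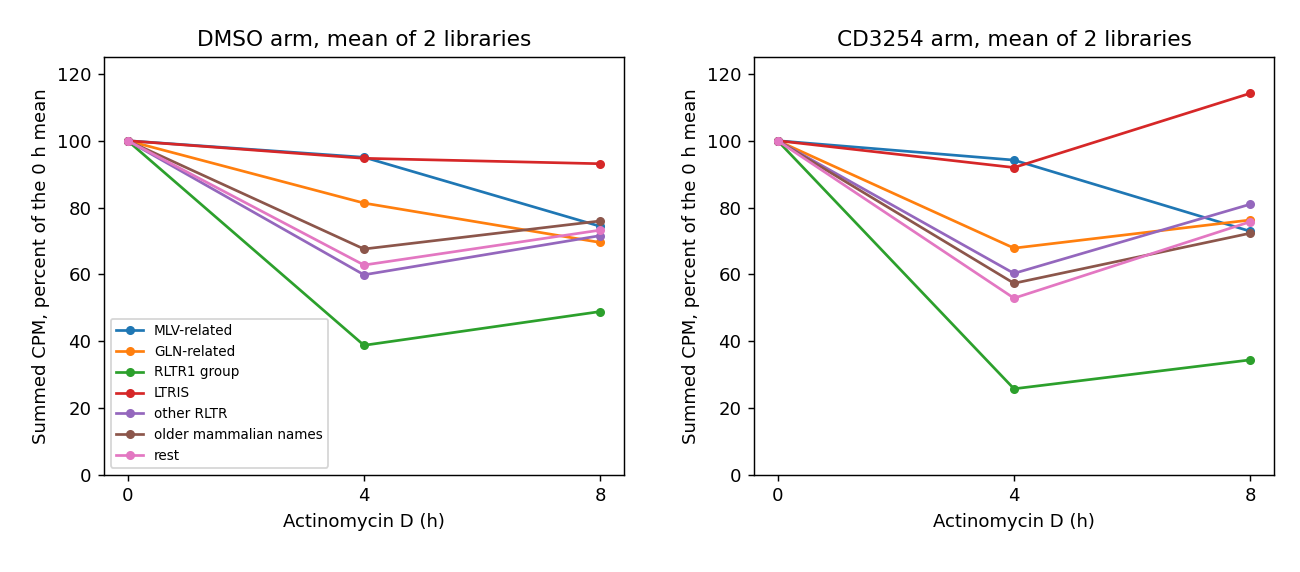
Summed CPM of 7 name groups of ERV1 families as percent of the 0 h mean of the same arm, against hours of actinomycin D, in DMSO (left) and CD (right); points are means of 2 libraries. The RLTR1 group is lowest, at 38.75 and 25.73 percent at 4 h, and LTRIS is highest at 8 h, at 93.11 and 114.2 percent.

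Counts are given apart for internal and LTR names, a difference that was not tested. Of 10 internal families 2 fell in DMSO at 4 h, 7 in CD at 4 h, 6 in DMSO at 8 h and 5 in CD at 8 h. Of 47 LTR families the counts were 3, 13, 2 and 7. Over all features 21.2, 36.9, 26.9 and 40.8 percent fell in these comparisons. The ratio of RLTR1B to RLTR1B-int CPM was 0.221 ± 0.041 (SD, n = 2) in DMSO and 0.155 ± 0.010 in CD at 0 h, and 0.380 ± 0.075 and 0.320 ± 0.007 at 4 h. The ratio of RLTR14 to RLTR14-int went from 0.740 ± 0.016 to 1.132 ± 0.003 in DMSO and from 0.592 ± 0.042 to 0.844 ± 0.009 in CD over the same 4 h. For MMERGLN the ratio did not go up, at 0.054 ± 0.002 and 0.074 ± 0.001 at 0 h and 0.043 ± 0.010 and 0.069 ± 0.004 at 4 h. Nor did that of MERV1_LTR to MERV1_I-int. It was 0.36 ± 0.05 in DMSO and 0.33 ± 0.11 in CD at 0 h, and 0.27 ± 0.12 and 0.23 ± 0.09 at 4 h. An LTR name also collects solitary LTRs, and the sources used here do not give how reads matching many copies were assigned.

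The difference in decay asks whether the change from 0 to 8 h differed between the arms. In limma 0 of 57 families passed, with 1 at an unadjusted p under 0.05, beside 0.0282 percent of all features higher and 0.0 percent lower, and edgeR and DESeq2 also called 0. The lowest p were those of MuRRS4-int (0.93 ± 0.26, adjusted p 0.383), MER34 (0.63 ± 0.29, adjusted p 0.447) and RLTR23 (0.76 ± 0.36, adjusted p 0.452). RLTR23, an LTR of the other RLTR names, had 3.27 and 4.16 CPM in DMSO and 3.101 and 3.13 CPM in CD at 0 h, and 1.44 and 3.12 CPM in DMSO and 3.90 and 3.49 CPM in CD at 8 h. MuRRS4-int fell past the threshold at 8 h in DMSO and not in CD, but this difference itself did not pass. With the 4 h in place of the 8 h libraries, chosen after seeing the data, 0 families passed as well.

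Genes of the cell's own control of retroviruses were read beside the families. The gene lists here and below were chosen with earlier results of these data known. Of 36 tested genes for ERV silencing, 9 were higher and 0 lower in CD at 0 h, and 6 higher and 0 lower at 8 h. Over all features 7.99 percent were higher and 6.16 percent lower at 0 h, and 9.28 and 3.75 percent at 8 h. The smallest p at 0 h belonged to Suv39h2, a histone H3 lysine methyltransferase (log2 1.05, adjusted p 0.0224), Uhrf1, which brings DNMT1 to replicated DNA (1.02, adjusted p 0.0259), and Chaf1a, a histone chaperone subunit (0.79, adjusted p 0.0278). At 8 h it belonged to Rif1 (1.65, adjusted p 0.0027), Hells, a chromatin remodeler needed for DNA methylation of repeats (1.47, adjusted p 0.00346), and Dnmt3b, a DNA methyltransferase (0.82, adjusted p 0.0136). Trim28, Setdb1 and Zfp809, named here after their values were seen because they silence MLV in mouse embryonic cells, differed at 0 h by 0.66, 0.38 and 0.08, with adjusted p of 0.0506, 0.14 and 0.808. With ActD, 26 of the 36 fell at 8 h in DMSO and 29 in CD, against the 26.9 and 40.8 percent of all features given above. The median log2 difference of the list at 0 h was 0.593, beside 0.189 over all features.

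Of 17 tested restriction factors and receptors of gammaretroviruses and related viruses, 3 were higher and 1 lower in CD at 0 h and again at 8 h, beside the same shares over all features (7.99 and 6.16 percent at 0 h, 9.28 and 3.75 percent at 8 h). Slc20a2, which serves as the receptor of amphotropic MLV, was lower at 0 h (log2 -0.59, adjusted p 0.0199) and at 8 h (-0.71, adjusted p 0.00695). Slc1a5, a neutral amino acid transporter used by some retroviruses of other mammals, was higher at both times (0.55 and 0.79, adjusted p 0.019 and 0.00315). Zc3hav1, an antiviral protein that binds CpG-rich RNA, was higher at 0 h (1.03, adjusted p 0.0392), and Trim30d at 8 h (0.93, adjusted p 0.0258).

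Of 19 tested genes of the RNA exosome, the 3′ to 5′ RNA-degrading complex named in the study's title, and of nuclear decay, 3 were higher and 0 lower in CD at 0 h and again at 8 h, beside 7.99 and 9.28 percent of all features higher. At 0 h these were Exosc5, a core subunit (0.82, adjusted p 0.0299), Zcchc8, a scaffold of the nuclear targeting complex (0.79, adjusted p 0.0318), and Mphosph6 (1.31, adjusted p 0.0408). At 8 h they were Zfc3h1 (0.79, adjusted p 0.00435), Exosc8 (1.29, adjusted p 0.0121) and Zcchc7 (1.16, adjusted p 0.0373). With ActD 13 of the 19 fell at 8 h in DMSO and 17 in CD, beside 26.9 and 40.8 percent of all features. The summed level of the list was 608.1 and 460.8 CPM in DMSO and 1021 and 693.3 CPM in CD at 0 h. The summed ERV silencing list was also highest in replicate 1 of CD at 0 h (4776 CPM), the library with the lowest ERCC share.

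The labelled cell type was checked against markers. All 10 fibroblast markers were tested and summed to 4565 to 6575 CPM in the DMSO and 3066 to 4827 CPM in the CD libraries. Of the 10, 7 were lower and 0 higher in CD at 0 h. Over all features 6.16 percent were lower and 7.99 percent higher at 0 h, and these shares also stand beside the marker counts below. The 7 markers of extraembryonic endoderm, a cell state that chemical reprogramming passes through, summed to 2612 to 5177 CPM in DMSO and 6377 to 8570 CPM in CD, and 4 were higher and 0 lower at 0 h. Of 5 pluripotency markers 1 could be tested. Its log2 difference in CD was 1.4 at 0 h, which did not pass. Averaged over times it was 0.763 and passed, as did 27.4 percent of all features in that direction. This marker fell past the threshold at 4 and 8 h in both arms. Dppa5a was listed at 0 in both arms at 0 and 8 h. Of 6 macrophage markers 5 were tested, summing to 315.6 to 596.0 CPM in DMSO and 135.9 to 529.7 CPM in CD, and 2 were lower and 0 higher in CD at 0 h. The 3 endothelial markers summed to 63.9 to 131.3 CPM in DMSO and 49.3 to 64.6 CPM in CD. The part of these cell types in the ERV1 differences between the arms was not tested.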

How the data were processed

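RNA of the 12 libraries of the actinomycin D experiment was measured by RNA-seq of total RNA. The submitters' processing notes list the build mm10 and the programs StringTie 2.0, HISAT2 2.1.0 and fastp 0.20.1. The sources used here do not give their options or how reads matching several repeat copies were assigned. The deposited signal, whose unit is not named per the file headers, behaves as CPM, in which every library has the same total: dividing by the smallest step of a library gave whole reads, within 0.001, for 100 percent of values at 0 h and 99.9982 percent in each other library. A second name with the same values was found for 1145 of the 1146 repeat families, and each family was used once. Planned as CPM, the unit is recorded as signal because the second names take the columns over that total.

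Features with 1 CPM or more in at least 2 libraries (17720 genes and repeat families, ERCC left out) went into a limma 3.58.1 fit (R 4.3.3) of log2(CPM + 1), with an eBayes trend, 1 coefficient per group over all 12 libraries and 2-sided p adjusted by Benjamini-Hochberg over all features, called under 0.05. Log2 changes carry their SE. The code was tested on simulated data. Alternatives were a pseudocount of 0.1, no filter, a filter of 5 CPM, scaling to the median ratio of genes or to ERCC, edgeR 4.0.16 and DESeq2 1.42.0 on the recovered reads, adjustment over repeat families alone, a replicate block and leaving out each library. The members and lists were chosen with earlier results of these data known.

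Families named are the 10 with the highest mean CPM, up to 4 called per comparison and direction with the largest change and no overlap, and the lowest p in the difference in decay; host genes are the 3 with the smallest p per list at 0 and 8 h. Of the gene lists, 36 of 38 ERV silencing, 17 of 17 restriction and receptor and 19 of 21 decay genes were found and tested. Name groups follow prefixes; RLTR41, RLTR47 and RLTR48 names, which the planned prefix RLTR4 would have taken as MLV-related, were put with the other RLTR names, and MERV1 names with the rest. Another list of cell type markers is not reported here.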

Additional observations from a re-analysis of the deposited data

How the results depend on the processing

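Each call of a named ERV1 family in a comparison kept its direction under the alternatives run. RLTR4_MM-int in CD at 4 h against 0 h, which was not called, went from -0.10 to 0.36 with edgeR and 0.32 with DESeq2. The counts of calls moved as follows, and the cause was not tested. At 0 h the 1 call became 2 with the 5 CPM filter and 0 with ERCC scaling or with adjustment over repeat families alone. At 4 h the 0 calls became 1 with a pseudocount of 0.1 and 1 with DESeq2. At 8 h the 4 calls became 2 with ERCC scaling, DESeq2 or adjustment over repeat families alone. For DMSO at 4 h against 0 h the 5 calls became 0 with ERCC scaling and 10 with adjustment over repeat families alone. For CD at 4 h against 0 h the 20 calls became 10 with the 5 CPM filter, 13 with median-ratio scaling (1 higher) and with edgeR (3 higher) and 9 with DESeq2 (2 higher). For DMSO at 8 h against 0 h the 8 calls became 5 with no filter, ERCC scaling or adjustment over repeat families alone, 3 with median-ratio scaling or edgeR and 4 with DESeq2 (1 higher, MuLV-int); 1 of the 5 with no filter was also higher. For CD at 8 h against 0 h the 12 calls became 6 with the 5 CPM filter (1 higher), median-ratio scaling (2 higher) or DESeq2 (2 higher) and 5 with edgeR (3 higher and 2 lower). The 9 calls of the contrast averaged over times became 5 with DESeq2.

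With each library left out the counts ran from 0 to 3 at 0 h, 0 to 0 at 4 h, 1 to 6 at 8 h, 0 to 8 and 7 to 22 for DMSO and CD at 4 h against 0 h, 0 to 11 and 3 to 13 at 8 h against 0 h, 0 to 0 for the difference in decay and 6 to 10 averaged over times; a lone library is then assumed to vary like the other groups. Replicate numbers were not taken as pairs in the main fit. Replicate deviations correlated at -0.686 to 0.537 between groups, over 0.1 in 4 of 15 pairs, and most for DMSO with CD at 0 h. Whether samples were paired cannot be told from these values. With the replicate block the counts were 1, 0 and 3 at 0, 4 and 8 h, 5 and 18 for DMSO and CD at 4 h, 6 and 9 at 8 h, 0 for the difference in decay and 7 averaged over times.

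Median-ratio scaling moved the median of all features by 0.249 to 0.327 (log2) in the comparisons with 0 h and by -0.055 to -0.16 between the arms. The sources used here do not give the ERCC amount per cell. With 2 libraries a group, calls near the threshold moved with single libraries, and the 87 families under the filter were too shallow to test.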

Other observations

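Of the 5 VL30 and RLTR6 families, left out of the ERV1 set, 4 were lower in CD and 0 higher in the contrast averaged over times, beside 12.3 and 27.4 percent of all features. MMVL30-int was listed at 3190 and 3226 CPM in DMSO and 3374 and 3524 CPM in CD at 0 h. At 4 h it was listed at 2919 and 3706 CPM in DMSO and 2800 and 2442 CPM in CD. At 8 h it was listed at 2434 and 2613 CPM in DMSO and 2110 and 1948 CPM in CD. Filled in from the reads missing to each library's total, the 4 h values would be 2434 and 2613 CPM in DMSO and 2110 and 1948 CPM in CD, the pairs listed at 8 h. The 0 h values fill their totals as listed.

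Other repeat classes gave other shares in the contrast averaged over times. Of 34 SINE families tested 26 were higher and 0 lower, and of 127 ERVL and MaLR families 19 were higher and 2 lower. Of 122 LINE families 11 were higher and 6 lower, and of 211 ERVK families 11 were higher and 9 lower. Beside these, 13.9 percent of all 656 repeat families tested were higher and 3.51 percent lower. Over all features the shares were 27.4 and 12.3 percent. This contrast was added after seeing the data, and the differences between classes were not tested.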
